A study of Danio rerio with 16 samples.

Results

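Midkine and pleiotrophin are small, secreted, heparin-binding growth factors that form a family of their own. They were followed here with receptors they are known to bind and with ltk, the sister kinase of Alk. Both ligands hold on to sulfated sugar chains of the matrix and signal through the receptor phosphatase Ptprz, through Lrp1 and integrins, and, as reported in mammalian cells, through the receptor tyrosine kinase Alk and cell-surface nucleolin. In rodents both have been described in regenerating muscle. The members were 8 of the 32520 genes in the table, found by the symbols mdka, mdkb, ptn, alk, ltk, ptprz1a, ptprz1b and ncl. They were picked because midkine rose steeply after injury in these same libraries, so all of their injury values below are a description and carry no test. Tests are given for the mutants against wild type and for the difference between the genotypes' injury responses. They share libraries with the injury values, so they are not independent of that choice. Midkine and Ptprz1 each have a pair of gene IDs in the symbol table (MDK and PTPRZ1), and the table does not say which is the a and which the b paralog, so these are called by their IDs. All 8 members passed the filter on low counts, which left 16514 genes.

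The study compared skeletal muscle of adult zebrafish of 2 genotypes, a CRISPR/Cas9-edited line with allele bns502 of ankrd1a and the wild type strain AB (Oregon). The gene ankrd1a encodes a muscle protein with ankyrin repeats, of a family that responds to stretch and damage. Injured fish had a needle stab in the dorsal muscle of the tail and recovered for 5 days, and the block of tail around the lesion was taken, while non-injured fish gave the matching region. There were 4 groups (injured mutants, non-injured mutants, injured wild type and non-injured wild type) of 4 libraries, each from 1 fish, and p-values measure the spread between these fish. No age beyond adult, sex, or position of the edit in ankrd1a is given in the labels.

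Libraries held 17324501 to 25231137 estimated counts, and mutant libraries were on the whole the shallower ones. Values are CPM, counts put on a common library size by TMM, a method that sets the sizes by the bulk of genes. They are not divided by transcript length, so levels are compared between libraries and not between genes. The symbol ANKRD1 belongs to 2 IDs that the table does not tell apart. One of them, ENSDARG00000075263, averaged 132 ± 28 CPM in injured mutants and 1.22 ± 0.155 CPM in non-injured mutants, against 166 ± 19.4 CPM in injured wild type and 3.53 ± 1.45 CPM in non-injured wild type (SD, n = 4 each). The other, ENSDARG00000076192, stayed between 0 and 1.73 CPM in all 16 libraries. The labels do not say what the edit does to the transcript, so these values do not check the genotype labels. Of 11 muscle fibre markers, all were detected in injured mutants, non-injured mutants and injured wild type and 10 in non-injured wild type (1 TNNT3 gene was at 0), and they summed to 121921 CPM or more in every library, which is what the tissue label names.

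The midkine gene ENSDARG00000036036 was scarce in non-injured muscle and abundant in injured muscle of both genotypes. In injured mutants the 4 libraries had 77.7, 70.6, 105 and 56.5 CPM, and in non-injured mutants 4.69, 7.48, 8.35 and 8.51 CPM. In injured wild type they had 217, 212, 162 and 81.5 CPM, and in non-injured wild type 5.58, 7.68, 6.40 and 3.63 CPM. Every injured library lay above every non-injured one, as was so for 16.3% of all genes in mutants and 11.8% in wild type, and the highest values of all were in 3 of the 4 injured wild type fish. The values rest on 1124 to 2129 estimated counts per library in injured mutants and 87 to 158 in non-injured mutants, against 1927 to 5979 in injured wild type and 80 to 126 in non-injured wild type. In bulk tissue such as this, more cells that make a transcript and more transcript per cell cannot be told apart.

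**Figure D1:**
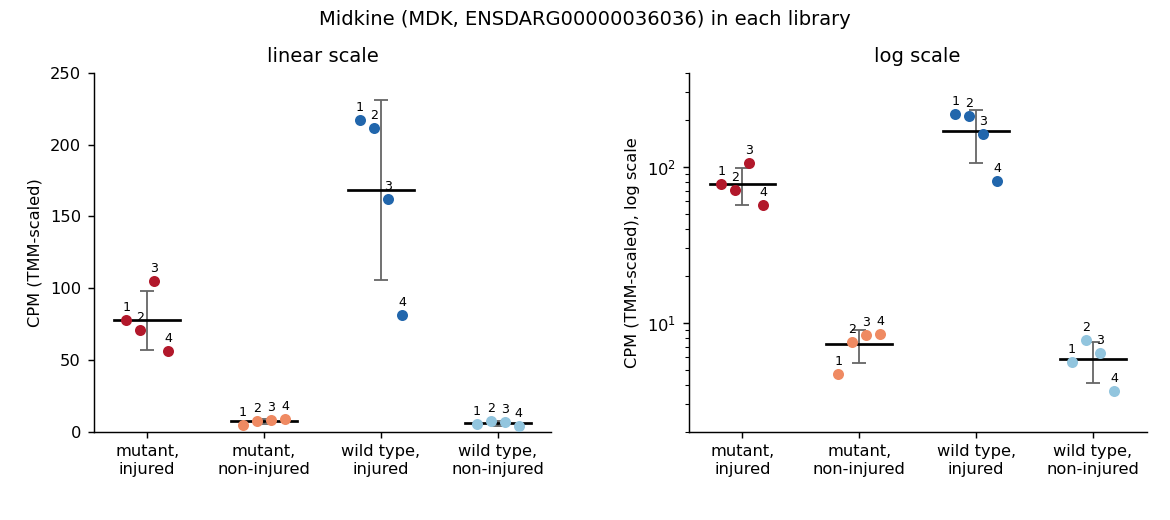
TMM-scaled CPM of midkine ENSDARG00000036036 in each library on a linear scale (left) and a log scale (right), with replicate numbers, the group mean as a bar and the SD (n = 4 each) as a whisker. Injured libraries sit between 56.5 and 217 CPM and non-injured ones between 3.63 and 8.51 CPM.

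As a description, midkine ENSDARG00000036036 was 10.7-fold higher in injured than in non-injured mutants (log2 fold change 3.42, SE 0.33) and 28.9-fold higher in injured than in non-injured wild type (4.86, SE 0.35). Of the 16514 genes tested, 138 had a larger log2 rise in mutants and 45 had a larger one in wild type. By group means, midkine ran from 168 ± 62.9 CPM in injured wild type and 77.5 ± 20.5 CPM in injured mutants down to 7.26 ± 1.77 CPM in non-injured mutants and 5.82 ± 1.70 CPM in non-injured wild type (SD, n = 4 each). Within this order, the neighbours that share an injury state overlapped in their libraries and those that differ in it did not. Under edgeR at an adjusted p below 0.05, 2 of the 8 members were called higher in injured mutants, where 14.0% of all genes were. In injured wild type 1 of the 8 was, where 11.8% of all genes were. None was called lower in either genotype, where 13.3% and 11.9% of all genes were. Since the members were picked on these contrasts, nothing is read from those counts.

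The choice did not use the genotype comparisons, but they share libraries with the injury responses it was made on. The difference of responses is built from those same responses. The p-values below are therefore not independent of that choice. Injured mutants averaged 0.461 times the level of injured wild type for ENSDARG00000036036, with a 95% interval of 0.297 to 0.714. On the log2 scale the difference was -1.12 (SE 0.30, edgeR adjusted p = 0.076), which missed the threshold. The groups also overlapped, because injured wild type fish 4, at 81.5 CPM, lay below injured mutant fish 3, at 105 CPM. The call turned on the tool and on that 1 fish: DESeq2 gave -1.13 with an adjusted p of 0.00998, and leaving out injured wild type replicate 4 gave -1.34 with an edgeR adjusted p of 0.0161. The other 12 of 14 alternatives made no call, and over all 14 the adjusted p ran from 0.00998 to 0.204. All of them kept the direction.

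In non-injured muscle the same gene differed by 0.32 on the log2 scale between mutants and wild type (SE 0.31, 95% interval -0.35 to 0.99, edgeR adjusted p = 0.60). The difference between the injury responses, mutant minus wild type, was -1.44 (SE 0.43, 95% interval -2.35 to -0.52, edgeR adjusted p = 0.42). An unadjusted interval that leaves out 0 beside a high adjusted p reflects the adjustment over 16514 genes, of which 0.0606% were called in this contrast. Over all alternatives that adjusted p ran from 0.116 to 0.640. No member was called by edgeR in the non-injured comparison, in the injured comparison or in the difference of responses, where 2.83%, 1.48% and 0.0606% of all genes were. At an unadjusted p below 0.05 the count was 0, 1 and 1 of 8, the 1 being midkine ENSDARG00000036036 both times. Of the 16514 genes, 389 had a smaller p than midkine in the injured comparison and 170 in the difference of responses. The share of all genes at that unadjusted p was not taken, so nothing is read from these counts. DESeq2 called 0, 1 and 0 of the 8, where it called 1136, 701 and 66 of all genes. For all 8 members the libraries of mutants and wild type overlapped, in non-injured and in injured muscle, where 9.07% and 11.8% of all genes did not overlap.

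**Figure D2:**
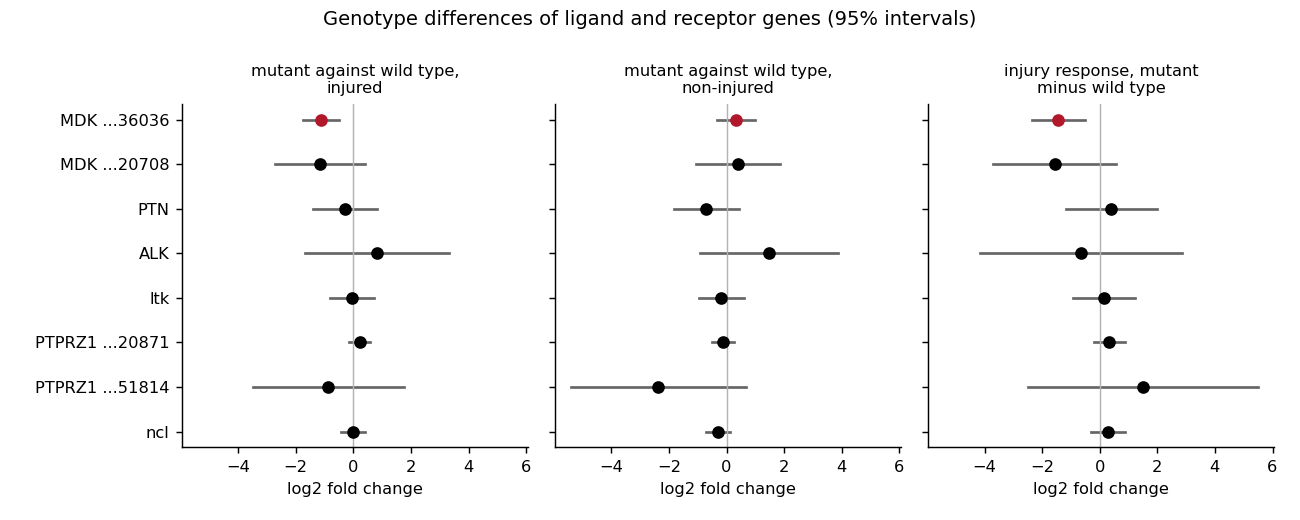
Log2 fold changes with 95% intervals of the 8 members for mutants against wild type in injured muscle, the same in non-injured muscle, and the injury response of mutants minus that of wild type. Midkine ENSDARG00000036036 (red) is the one gene whose interval leaves out 0, in injured muscle (-1.75 to -0.49) and in the difference of responses (-2.35 to -0.52).

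Midkine and the summed markers of fibroblasts, the matrix-producing cells, were both higher in injured than in non-injured muscle of each genotype. So were the sums for macrophages and for myoblasts, given below, and for dividing cells. The 12 markers of dividing cells summed to 56.4 to 118 CPM in injured mutants and 23.3 to 38.8 CPM in non-injured mutants. They summed to 57.5 to 81.0 CPM in injured wild type and 22.4 to 29.3 CPM in non-injured wild type. All 11 fibroblast markers were detected in every group, and their summed level was 9244 to 11557 CPM in injured mutants, 3325 to 4026 CPM in non-injured mutants, 12228 to 16057 CPM in injured wild type and 3457 to 5514 CPM in non-injured wild type. The fibroblast sums of injured mutants and injured wild type did not overlap. Type I collagen weighed heavily in them, with COL1A1 and COL1A2 at means of 3727 and 3222 CPM in injured wild type. Of the 11 markers, 11 were lower in injured mutants than in injured wild type and 1 was called. It was DCN (decorin, a collagen-binding proteoglycan), at 260 ± 7.93 CPM in injured mutants and 439 ± 78.2 CPM in injured wild type (SD, n = 4 each). That difference was -0.76 on the log2 scale (SE 0.15, edgeR adjusted p = 0.021), and 5 of 14 alternatives kept the call. It was lost without injured mutant replicate 2, 3 or 4 and without injured wild type replicate 1, 2 or 3. Lack of TMM scaling (adjusted p = 0.093) and a fit with replicate number as a block lost it too. So did leaving out the 2 libraries highest in epidermis markers (0.08).

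Among the 4 injured wild type fish, midkine and the fibroblast sum fell in the same order. Replicates 1, 2, 3 and 4 had 16057, 15554, 13122 and 12228 CPM of fibroblast markers. The neutrophil sum, over 3 markers, followed that order too, at 26.9, 25.4, 4.35 and 2.02 CPM. Injured mutants did not show that order: replicates 1, 2, 3 and 4 had 77.7, 70.6, 105 and 56.5 CPM of midkine, 11557, 9244, 10470 and 9901 CPM of fibroblast markers and 2.33, 4.39, 2.47 and 3.13 CPM of neutrophil markers. In injured mutants the neutrophil sum was 2.33 to 4.39 CPM, in non-injured mutants 0.526 to 1.17 CPM, with mmp13a at 0 throughout, and in non-injured wild type 1.36 to 5.47 CPM. Of 5 neutrophil markers listed 3 had a match, and 2 of these had enough counts to test. The marker NCF1 reached at most 5.85 CPM in injured wild type, so most of the 26.9 and 25.4 CPM there came from the others, mmp13a among them. Levels of those others are not given singly, so the sum is not read as a measure of neutrophils alone. Macrophage markers, 12 in number, summed to 284 to 392 CPM in injured mutants, with 1 of the 3 MPEG1 genes at 0, and 120 to 170 CPM in non-injured mutants. They summed to 239 to 394 CPM in injured wild type and 125 to 230 CPM in non-injured wild type, so the injured groups overlapped. The part of fibroblasts or neutrophils in the midkine values was not tested.

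Fibroblast markers were not the only ones whose sums did not overlap between the injured genotypes. Of 11 marker lists, 4 had sums that did not overlap between injured mutants and injured wild type, and 7 overlapped. Of all single genes, 11.8% did not overlap there. That share is not a like measure for sums over several genes, and none was taken over sums, so nothing is read from the 4. In those 4 lists edgeR called 1 of 11 fibroblast, 1 of 9 myoblast, 0 of 4 red blood cell and 0 of 14 nerve markers tested. Of all genes 1.48% were called. Markers of muscle stem cells and myoblasts, 9 in number, summed to 137 to 168 CPM in injured mutants and 67.8 to 80.5 CPM in non-injured mutants, against 97.9 to 125 CPM in injured wild type and 62.6 to 91.6 CPM in non-injured wild type. The 5 red blood cell markers summed to 94.8 to 203 CPM in injured mutants and 60.3 to 340 CPM in non-injured mutants, with SLC4A1 at 0, against 322 to 856 CPM in injured wild type and 125 to 387 CPM in non-injured wild type. The fourth list, of nerve and Schwann cells, is given with the other midkine gene.

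Among the myoblast markers, CDH15, a cadherin of muscle precursor cells, averaged 49.9 ± 2.05 CPM in injured mutants and 27.7 ± 2.59 CPM in injured wild type (SD, n = 4 each). That difference was 0.85 on the log2 scale (SE 0.15, edgeR adjusted p = 0.011), a call made by all 14 alternatives. In non-injured muscle MYF5, a myogenic transcription factor, averaged 4.72 ± 0.864 CPM in mutants and 2.69 ± 0.297 CPM in wild type, a log2 difference of 0.81 (SE 0.17, edgeR adjusted p = 0.019). It was called by 11 of 14 alternatives and lost with only these 8 libraries fitted (adjusted p = 0.11), without mutant replicate 3 (0.067) and without wild type replicate 2 (0.053). The part of any of these cells in the midkine values was not tested.

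Midkine was also set against the fibroblast sum, as a description. Per 1000 CPM of fibroblast markers there were 7.53 ± 1.86 CPM of midkine in injured mutants and 1.99 ± 0.535 CPM in non-injured mutants. There were 11.5 ± 3.30 CPM in injured wild type and 1.41 ± 0.465 CPM in non-injured wild type (SD, n = 4 each). The injured groups overlapped on this measure, at 5.70 to 10.0 in mutants and 6.66 to 13.6 in wild type.

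**Figure D3:**
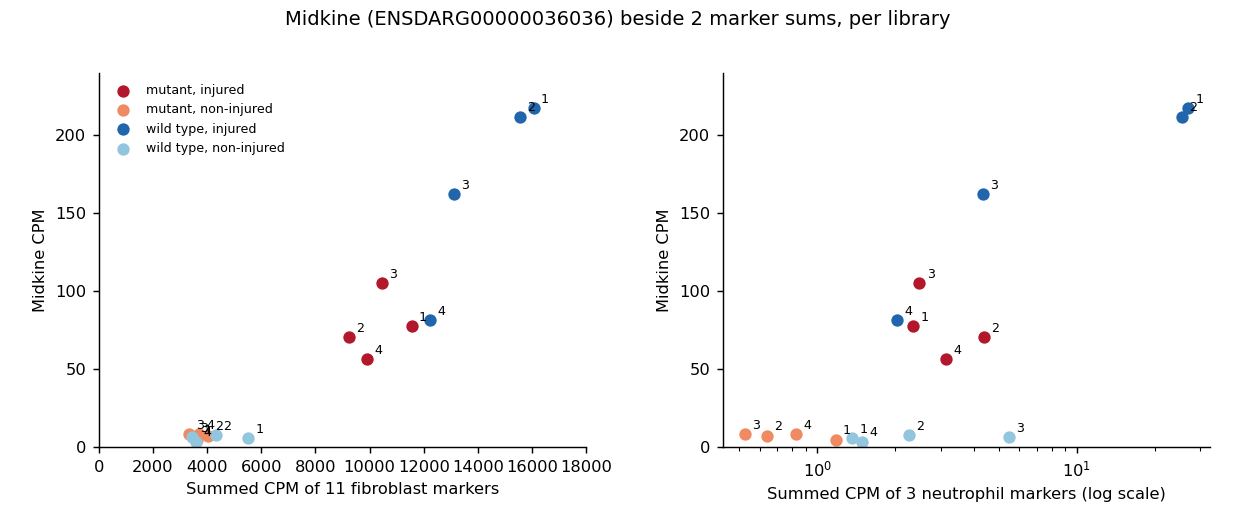
Midkine ENSDARG00000036036 CPM against the summed CPM of 11 fibroblast markers (left, linear axes) and of 3 neutrophil markers (right, log x axis), 1 point per library with its replicate number. Injured mutants lie at 9244 to 11557 CPM of fibroblast markers and injured wild type at 12228 to 16057 CPM, with the 2 injured wild type fish highest in midkine also highest on both x axes.

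Genes whose level across the 16 libraries was most like that of midkine ENSDARG00000036036 were LUM, col16a1, PPIB, COL12A1 and txnb. Among 10448 genes, Pearson's r of log2 CPM was 0.988 for LUM (lumican, a collagen-binding proteoglycan, which is also among the fibroblast markers). It was 0.980 for col16a1 and 0.977 for COL12A1, both collagens that attach to other fibrils. It was 0.978 for PPIB, a prolyl isomerase that helps fold collagen, and 0.975 for txnb, a thioredoxin. The median over all 10448 genes was -0.09. These 16 points share their library, depth and injury group, and the injury groups alone spread them widely.

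Since these genes were picked for likeness over all 16 libraries, their group levels are a description. LUM had 50.2 to 55.6 CPM in injured mutants and 9.59 to 14.2 CPM in non-injured mutants, against 57.5 to 98.1 CPM in injured wild type and 5.58 to 15.4 CPM in non-injured wild type. As with midkine, the highest LUM values were in injured wild type, but here its lowest fish lay above every mutant. The LUM difference between injured mutants and injured wild type was -0.63 on the log2 scale (SE 0.24, edgeR adjusted p = 0.23). The gene txnb was near 0 without injury, at 30.8 to 52.8 CPM in injured mutants and 0.754 to 1.43 CPM in non-injured mutants, against 31.2 to 49.0 CPM in injured wild type and 0.499 to 1.04 CPM in non-injured wild type. For txnb the injured groups covered nearly one range.

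With each group's mean taken off, so that only fish of 1 group are compared, other genes came nearest to midkine ENSDARG00000036036. These were tsg101b, an endosomal sorting protein (r = 0.876), PTPRU, a receptor phosphatase (0.867), MFAP4, which carries the symbol of a human microfibril-associated protein (0.860), DKK3, a secreted Dickkopf protein (0.857), and ARF5, a small GTPase of vesicle transport (0.850). The median over all genes was -0.02, again over 16 libraries. None of the 5 genes is among the 5 most alike before the group means were removed.

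The other midkine gene, ENSDARG00000020708, was near the limit of detection and did not share the rise. It had 0.140, 0.783, 0.198 and 0.10 CPM in injured mutants and 0.162, 2.08, 1.53 and 0.512 CPM in non-injured mutants. Injured wild type had 1.05, 0.861, 0.520 and 0.338 CPM, and non-injured wild type 0.890, 0.914, 0.310 and 1.13 CPM. These are 2 to 39 estimated counts per library, and all 4 groups overlapped. Non-injured mutants 2 and 3 were highest, while 3 of the 4 injured mutants lay below all 8 wild type fish.

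The injury log2 fold change of ENSDARG00000020708 was -1.79 in mutants (SE 0.74) and -0.22 in wild type (SE 0.69). Without injured mutant replicate 2, the value in mutants was -2.83. Mutants differed from wild type by -1.16 in injured muscle (SE 0.73, 95% interval -2.72 to 0.39, edgeR adjusted p = 0.50). In non-injured muscle they differed by 0.40 (SE 0.69, 95% interval -1.06 to 1.86, edgeR adjusted p = 0.78), which turned to -0.13 without non-injured mutant replicate 2. The difference of responses was -1.57 (SE 1.0, 95% interval -3.70 to 0.56, edgeR adjusted p = 0.81). RSEM, which the processing notes name without its role, shares reads between alike genes by probability. Low counts of 1 paralog beside an abundant one are therefore uncertain.

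The genes most like ENSDARG00000020708 in level were different ones. Among them were KIF5A, a motor of axonal transport (r = 0.875), MAP1B, a microtubule protein of neurons (0.821), and NEFL, a neurofilament chain (0.804), with YWHAG (0.820) and UTP11 (0.814). After removal of group means they were KIF5A (0.860), CCN4 (0.850), UTP11 (0.835), brms1 (0.833) and tmem59l (0.826). NEFL had 0.201 to 1.06 CPM in injured mutants and 0.431 to 9.88 CPM in non-injured mutants, against 0.211 to 2.0 CPM in injured wild type and 0.726 to 3.72 CPM in non-injured wild type. Nerve and Schwann cell markers, 14 in number and all detected in every group, summed to 225 to 271 CPM in injured mutants and 433 to 602 CPM in non-injured mutants. They summed to 290 to 331 CPM in injured wild type and 366 to 590 CPM in non-injured wild type. Non-injured mutant 2, at 602 CPM, was the highest in these markers and, at 2.08 CPM, in ENSDARG00000020708. Other fish did not follow this: non-injured mutant 3 had 1.53 CPM of the gene and 446 CPM of the markers. For non-injured wild type 2 these were 0.914 and 590 CPM. The part of nerve tissue in the values of ENSDARG00000020708 was not tested.

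PTN (pleiotrophin, the other ligand) was also scarce and did not separate the groups. It had 0.560, 1.61, 0.494 and 0.753 CPM in injured mutants and 0.269, 0.962, 0.634 and 1.60 CPM in non-injured mutants. It had 1.34, 1.58, 0.425 and 0.846 CPM in injured wild type and 0.949, 1.22, 1.08 and 2.31 CPM in non-injured wild type. All groups overlapped, and the highest fish was non-injured wild type 4. The log2 fold change after injury was -0.0012 in mutants (SE 0.58) and -0.40 in wild type (SE 0.51), beside 3.42 and 4.86 for midkine ENSDARG00000036036 in the same fish.

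Between the genotypes, PTN differed by -0.30 in injured muscle (SE 0.52, 95% interval -1.41 to 0.81, edgeR adjusted p = 0.84). It differed by -0.70 in non-injured muscle (SE 0.53, 95% interval -1.83 to 0.42, edgeR adjusted p = 0.48). At this depth of 5 to 51 estimated counts per library, both intervals reach past a 2-fold deficit in mutants as well as past 0.

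ALK, a receptor tyrosine kinase, was detected at a few counts in most libraries. It had 1.21, 0.276, 0.543 and 0.10 CPM in injured mutants and 4.80, 0.588, 0.264 and 0 CPM in non-injured mutants. In injured wild type it had 0.363, 0.395, 0.0473 and 0.381 CPM, and in non-injured wild type 1.42, 0.122, 0.0516 and 0.454 CPM. Non-injured mutant 1 alone held 89 of its estimated counts, more than 3 times any other library, and the groups overlapped. The 0 in non-injured mutant 4 allows up to 0.192 CPM (3 counts).

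The injury log2 fold change of ALK was -1.40 in mutants (SE 1.11) and -0.74 in wild type (SE 1.2). In mutants it turned to 0.87 without non-injured mutant replicate 1, so that 1 fish set its sign. Mutants differed from wild type by 0.82 in injured muscle (SE 1.18, 95% interval -1.69 to 3.33, edgeR adjusted p = 0.81). In non-injured muscle they differed by 1.47 (SE 1.13, 95% interval -0.93 to 3.88, edgeR adjusted p = 0.49). Without non-injured mutant replicate 1 that value turned to -0.79 (edgeR adjusted p = 0.73), so its sign rests on the same fish. Without injured mutant replicate 1 the injured value was 0.03.

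The sister kinase ltk, known in zebrafish for its part in iridophore development, was as scarce and more even. It had 1.12, 1.29, 1.04 and 1.16 CPM in injured mutants and 1.08, 0.801, 1.27 and 0.512 CPM in non-injured mutants. It had 1.09, 1.69, 1.47 and 0.507 CPM in injured wild type and 1.36, 0.671, 1.24 and 0.907 CPM in non-injured wild type. No group stood apart. Its injury log2 fold change was 0.32 in mutants (SE 0.36) and 0.18 in wild type (SE 0.36). Mutants differed from wild type by -0.05 in injured muscle (SE 0.35, 95% interval -0.79 to 0.70, edgeR adjusted p = 0.97) and by -0.18 in non-injured muscle (SE 0.37, 95% interval -0.96 to 0.59, edgeR adjusted p = 0.82).

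The receptor phosphatase PTPRZ1, through which midkine and pleiotrophin act by holding back its phosphatase activity, has 2 IDs. For the ID ENSDARG00000020871 the injured mutants had 15.9, 12.2, 13.9 and 11.8 CPM, and the non-injured mutants 7.11, 8.66, 7.29 and 7.16 CPM. Injured wild type had 10.1, 11.8, 13.7 and 10.7 CPM, and non-injured wild type 8.01, 10.8, 5.27 and 8.80 CPM. All 4 injured mutants lay above all 4 non-injured ones, whereas in wild type non-injured fish 2 reached into the injured range.

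ENSDARG00000020871 was 1.78-fold higher in injured than in non-injured mutants (log2 fold change 0.83, SE 0.18) and 1.41-fold higher in injured than in non-injured wild type (0.50, SE 0.18). With library sizes not scaled by TMM these became 1.1 and 0.86, while the median gene moved to 0.26 and 0.34. Its group means were 13.4 ± 1.85 CPM in injured mutants, 11.6 ± 1.59 CPM in injured wild type, 8.22 ± 2.29 CPM in non-injured wild type and 7.56 ± 0.737 CPM in non-injured mutants (SD, n = 4 each). Each neighbour in that order overlapped the next. Mutants differed from wild type by 0.22 in injured muscle (SE 0.18, 95% interval -0.16 to 0.59, edgeR adjusted p = 0.63). In non-injured muscle they differed by -0.12 (SE 0.18, 95% interval -0.51 to 0.27, edgeR adjusted p = 0.75), and the responses differed by 0.33 (SE 0.25, 95% interval -0.21 to 0.87, edgeR adjusted p = 0.85).

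The second PTPRZ1 gene, ENSDARG00000051814, was patchy. It had 0.560, 0.0461, 0.198 and 1.16 CPM in injured mutants and 0, 0.534, 0.106 and 0 CPM in non-injured mutants. It had 2.25, 0.897, 0 and 0.381 CPM in injured wild type and 2.85, 0, 0.465 and 0.227 CPM in non-injured wild type. The highest fish were non-injured wild type 1 and injured wild type 1, and 4 libraries held 0 counts, which allows up to 0.142 to 0.192 CPM.

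These same fish were also highest in markers of epidermis, the outer skin layer. The sum of 9 such markers was 1990 CPM in non-injured wild type 1 and 1444 CPM in injured wild type 1, against 137 to 890 CPM in the other 14 libraries. Its group medians were 527 CPM in injured mutants, 168 CPM in non-injured mutants, 521 CPM in injured wild type and 511 CPM in non-injured wild type. Of the 9 markers, 0 were higher in non-injured mutants than in non-injured wild type (median log2 difference -2.09), and edgeR called 0. The part of skin in the values of ENSDARG00000051814 was not tested. Its injury log2 fold change was 1.53 in mutants (SE 1.45) and 0.03 in wild type (SE 1.2), and leaving out non-injured wild type replicate 1 turned the second value into 1.89. Leaving out non-injured mutant replicate 2 turned the first into 3.51. Mutants differed from wild type by -0.87 in injured muscle (SE 1.24, edgeR adjusted p = 0.80) and by -2.37 in non-injured muscle (SE 1.42, 95% interval -5.41 to 0.66, edgeR adjusted p = 0.37). The injured value turned to 0.16 without injured wild type replicate 1. The non-injured value was -0.51 without non-injured wild type replicate 1 (edgeR adjusted p = 0.89) and -4.34 without non-injured mutant replicate 2.

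The gene ncl encodes nucleolin, an abundant protein of the nucleolus that also binds midkine and pleiotrophin at the cell surface. It had 93.1, 128, 120 and 136 CPM in injured mutants and 79.9, 90.7, 97.1 and 156 CPM in non-injured mutants. It had 112, 131, 122 and 113 CPM in injured wild type and 113, 161, 137 and 109.5 CPM in non-injured wild type. The groups overlapped throughout. Its injury log2 fold change was 0.17 in mutants (SE 0.20) and -0.12 in wild type (SE 0.20); without TMM scaling these were 0.47 and 0.28, where the median gene stood at 0.26 and 0.34. Mutants differed from wild type by -0.0045 in injured muscle (SE 0.20, 95% interval -0.42 to 0.41, edgeR adjusted p = 0.99) and by -0.29 in non-injured muscle (SE 0.20, 95% interval -0.71 to 0.12, edgeR adjusted p = 0.42).

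**Figure D4:**
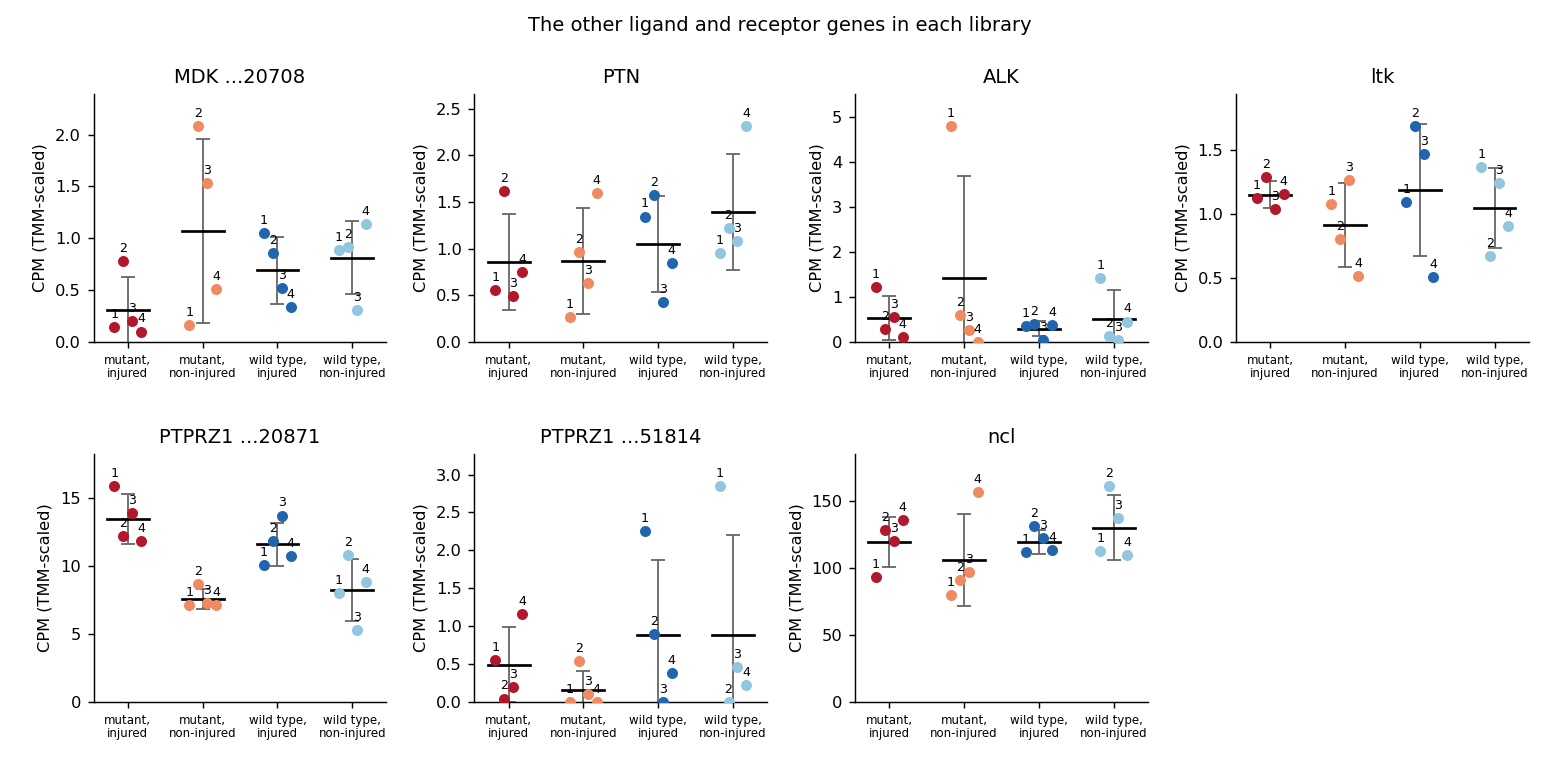
TMM-scaled CPM of the other 7 members in each library, with replicate numbers, the group mean as a bar and the SD (n = 4 each) as a whisker that is cut at 0. PTPRZ1 ENSDARG00000020871 is the one panel in which injured mutants (11.8 to 15.9 CPM) lie wholly above non-injured mutants (7.11 to 8.66 CPM), and single fish set the height of ALK and of PTPRZ1 ENSDARG00000051814.

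The genes around the pathway were taken from lists, which were chosen with results of these data known. Their counts are set beside those over all tested genes, of which 14.0% were called higher and 13.3% lower in injured mutants, and 11.8% higher and 11.9% lower in injured wild type. Counts at an unadjusted p below 0.05 stand without such a share, which was not taken over all genes, so nothing is read from them. Of the other known midkine receptors and co-receptors, 19 of 20 IDs were tested. In injured mutants 7 were higher and 3 lower than in non-injured mutants, and the median log2 fold change was 0.56. In wild type 6 were higher and 1 was lower, with a median of 0.37. The medians over all tested genes were -0.02 in mutants and -0.03 in wild type. Without 1 library at a time, the 10 calls in mutants became 5 to 9, with 5 left without injured mutant replicate 4 or non-injured mutant replicate 1, and 6 without injured mutant replicate 2 or 3 or non-injured mutant replicate 3 or 4.

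ITGA6 (ENSDARG00000042282), the integrin alpha 6 chain that pairs with beta 1 to bind laminin, had the largest rise of that list. It averaged 19.6 ± 3.11 CPM in injured mutants and 1.53 ± 0.517 CPM in non-injured mutants, against 13.5 ± 0.694 CPM in injured wild type and 0.835 ± 0.355 CPM in non-injured wild type (SD, n = 4 each). No injured fish overlapped a non-injured one, and the log2 fold changes were 3.67 in mutants (SE 0.26, edgeR adjusted p = 3.05e-07) and 4.02 in wild type (SE 0.27, edgeR adjusted p = 3.2e-07). One ITGB1 gene, ENSDARG00000104484, rose by 0.73 in mutants (SE 0.09) and 0.57 in wild type (SE 0.09).

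Both LRP1 genes, which encode an endocytic receptor that binds midkine, rose as well. ENSDARG00000097827 averaged 129 ± 19.7 CPM in injured mutants and 56.3 ± 5.75 CPM in non-injured mutants, against 177 ± 29.7 CPM in injured wild type and 78.1 ± 23.4 CPM in non-injured wild type (SD, n = 4 each). Its log2 fold changes were 1.2 in mutants (SE 0.20) and 1.19 in wild type (SE 0.20). For ENSDARG00000029146 they were 1.60 in mutants (SE 0.21) and 0.92 in wild type (SE 0.20), and all 4 values passed the edgeR test. The difference of responses was called for none of the co-receptors by edgeR or DESeq2, and 3 had an unadjusted p below 0.05.

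Between the genotypes, edgeR made 2 co-receptor calls. They were 1 of 19 in injured and 1 of 19 in non-injured muscle, where 1.48% and 2.83% of all genes were called. DESeq2 called 2 in injured and 4 in non-injured muscle, where it called 701 and 1136 of all genes. Unadjusted p-values below 0.05 numbered 6 and 8, from which nothing is read. The list's median log2 difference was -0.02 in injured muscle, with 9 of 19 above 0. In non-injured muscle it was -0.33, with 5 of 19 above 0, where the median over all genes was -0.01. In injured muscle another ITGB1 gene, ENSDARG00000071863, averaged 57.9 ± 9.86 CPM in mutants and 126 ± 9.75 CPM in wild type (SD, n = 4 each). All injured mutants lay below all injured wild type fish, and the log2 difference was -1.12 (SE 0.19, edgeR adjusted p = 0.0064), a call made by all 14 alternatives. Reads that fit both ITGB1 genes may have been shared between them. In non-injured muscle nrp1b, a neuropilin, averaged 8.44 ± 0.573 CPM in mutants and 4.65 ± 0.758 CPM in wild type, a log2 difference of 0.86 (SE 0.15, edgeR adjusted p = 0.0077). The non-injured count of 1 became 2 without non-injured mutant replicate 1 or 4 or non-injured wild type replicate 2 or 4.

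Of the established ligands of Alk and Ltk, alkal1 was the 1 of 3 with enough counts to test. It averaged 0.462 ± 0.334 CPM in injured mutants and 1.5 ± 0.277 CPM in non-injured mutants, against 0.424 ± 0.187 CPM in injured wild type and 1.19 ± 0.488 CPM in non-injured wild type (SD, n = 4 each). It fell by 1.67 on the log2 scale in mutants (SE 0.49, edgeR adjusted p = 0.020), with no overlap, and by 1.48 in wild type (SE 0.49, edgeR adjusted p = 0.040), with overlap. The calls held in 10 and 4 of 14 alternatives. In mutants the call was lost without injured replicate 2, 3 or 4, and in wild type without injured replicate 1, 2 or 3 or non-injured replicate 1, 2 or 4. Without TMM scaling it was lost in mutants (adjusted p = 0.057) and in wild type (0.1). In wild type it was also lost with no filter on low counts (0.054) and with only the libraries compared (0.066). Leaving out the 2 libraries highest in epidermis markers lost it there too (0.095).

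Ptprz is known to bind tenascins, contactin and chondroitin sulfate proteoglycans such as brevican and versican. Of 15 IDs of this kind 11 were tested. In mutants 3 were higher and 1 lower after injury (median 0.34), where 14.0% of all genes were higher and 13.3% lower (median -0.02). In wild type 4 were higher and 0 lower (median 0.32), where 11.8% of all genes were higher and 11.9% lower (median -0.03). The 4 wild type calls became 2 without injured replicate 2, injured replicate 3 or non-injured replicate 1. Of 2 genes with the symbol TNC (tenascin-C), ENSDARG00000021948 rose by 1.48 in mutants (SE 0.24, edgeR adjusted p = 0.00049) and 1.22 in wild type (SE 0.24, edgeR adjusted p = 0.0023). The other, ENSDARG00000078362, passed in neither, at 0.34 in mutants (SE 0.21, edgeR adjusted p = 0.25) and -0.45 in wild type (SE 0.21, edgeR adjusted p = 0.14).

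The gene bcan, which encodes brevican, rose by 1.39 in mutants (SE 0.38, edgeR adjusted p = 0.014) and 3.05 in wild type (SE 0.39, edgeR adjusted p = 9.62e-05). The difference of responses was called for none of this list by edgeR or DESeq2, and 3 genes had an unadjusted p below 0.05. In injured muscle bcan averaged 5.04 ± 1.1 CPM in mutants and 15.6 ± 7.77 CPM in wild type (SD, n = 4 each), with no overlap. That genotype difference was -1.63 (SE 0.36, edgeR adjusted p = 0.035). This was the 1 genotype call among the list's 11 tested genes, where 1.48% of all genes were called in injured muscle. It held in 4 of 14 alternatives, where the adjusted p ran from 0.0012 to 0.11, and was lost without any 1 of the injured mutant replicates or injured wild type replicate 1, 2 or 3. It was also lost without TMM scaling (adjusted p = 0.075) and with only the libraries compared (0.052). Leaving out the 2 libraries highest in epidermis markers lost it too (0.069).

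Enzymes that make and trim sulfated glycosaminoglycans, the sugar chains that hold midkine, were represented by 35 tested genes of 48 IDs. In mutants 12 were higher and 0 lower after injury (median 0.23), where 14.0% of all genes were higher and 13.3% lower (median -0.02). In wild type 9 were higher and 1 lower (median 0.33), where 11.8% of all genes were higher and 11.9% lower (median -0.03). CHST11, a chondroitin sulfotransferase, rose by 1.44 in mutants (SE 0.25) and 1.55 in wild type (SE 0.25). DSE, the epimerase that turns chondroitin into dermatan sulfate, rose by 1.08 in mutants (SE 0.19) and 1.32 in wild type (SE 0.18). CHST15 rose by 0.85 in mutants (SE 0.17) and 1.39 in wild type (SE 0.17), and SULF2, an extracellular sulfatase, by 0.69 in mutants (SE 0.20) and 0.91 in wild type (SE 0.20). All of these passed the edgeR test. EXTL3, which starts heparan sulfate chains, rose by 1.35 in mutants (SE 0.23) and stood at 0.10 in wild type (SE 0.23, edgeR adjusted p = 0.79). SULF1, another such sulfatase, rose by 1.14 in mutants (SE 0.21) and stood at 0.58 in wild type (SE 0.21, edgeR adjusted p = 0.053). The difference of responses was called for none of the list by edgeR or DESeq2, and 2 had an unadjusted p below 0.05. The mutant count fell to 7 without injured mutant replicate 1. No gene of this list was called between the genotypes by edgeR, where 2.83% of all genes were in non-injured and 1.48% in injured muscle. At an unadjusted p below 0.05 there were 9 in non-injured and 4 in injured muscle. The share of all genes at that p was not taken, so nothing is read from such counts. DESeq2 called 1 in non-injured and 1 in injured muscle, where it called 1136 and 701 of all genes. Leaving out 1 library gave 2 calls in non-injured muscle without mutant replicate 1, and 1 without mutant replicate 4 or wild type replicate 2 or 4.

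Signalling genes downstream of Alk and Ptprz, with 28 tested, went in both directions. After injury 5 were higher and 6 lower in mutants (median 0.02), where 14.0% of all genes were higher and 13.3% lower (median -0.02). In wild type 4 were higher and 1 lower (median -0.0043), where 11.8% of all genes were higher and 11.9% lower (median -0.03). CTNNB1, the beta-catenin that Ptprz dephosphorylates, rose by 0.76 in mutants (SE 0.13) and 0.77 in wild type (SE 0.13). FYN, a Src-family kinase, fell by 1.64 in mutants (SE 0.31, edgeR adjusted p = 0.0016) and stood at -0.42 in wild type (SE 0.30, edgeR adjusted p = 0.33). It was scarce, at 0.739 ± 0.327 CPM in injured and 2.30 ± 0.39 CPM in non-injured mutants (SD, n = 4 each). SRC itself rose by 0.74 in mutants (SE 0.16, edgeR adjusted p = 0.0038) and stood at 0.44 in wild type (SE 0.16, edgeR adjusted p = 0.060). GRB2, an adaptor, stood at -0.03 in mutants (SE 0.39, edgeR adjusted p = 0.96) and rose by 1.54 in wild type (SE 0.40, edgeR adjusted p = 0.012). This gene was scarce too, at 2.24 ± 0.379 CPM in injured and 0.774 ± 0.366 CPM in non-injured wild type (SD, n = 4 each). For none of the 28 was the difference of responses called by edgeR or DESeq2, and 4 had an unadjusted p below 0.05. The share of all genes at that p was not taken, so nothing is read from that count. The 11 calls in mutants became 5 to 8 without 1 library, with 5 left without injured replicate 1, 6 without injured replicate 4 or non-injured replicate 1 or 4, and 7 without injured replicate 2 or 3 or non-injured replicate 3. In non-injured muscle ptpn11b, which encodes the phosphatase Shp2, averaged 17.5 ± 2.63 CPM in mutants and 9.99 ± 1.83 CPM in wild type (SD, n = 4 each), a log2 difference of 0.81 (SE 0.16, edgeR adjusted p = 0.015). This was the 1 genotype call among the 28, where 2.83% of all genes were called in non-injured muscle. The call was lost when only these 8 libraries were fitted (adjusted p = 0.076).

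Of other heparin-binding or wound growth factors, 29 of 32 IDs were tested. In mutants 9 were higher and 3 lower after injury (median 0.25), where 14.0% of all genes were higher and 13.3% lower (median -0.02). In wild type 4 were higher and 1 lower (median 0.18), where 11.8% of all genes were higher and 11.9% lower (median -0.03). CCN1, a matricellular signalling protein, rose by 2.22 in mutants (SE 0.44) and stood at -0.02 in wild type (SE 0.42, edgeR adjusted p = 0.98). CCN2, of the same family, rose by 1.70 in mutants (SE 0.34) and stood at -0.14 in wild type (SE 0.33, edgeR adjusted p = 0.79). Both genotypes passed for the next 3 genes. The insulin-like growth factor igf2b rose by 2.08 in mutants (SE 0.23) and 1.37 in wild type (SE 0.22), HBEGF by 1.58 in mutants (SE 0.32) and 0.95 in wild type (SE 0.31), and TGFB3 by 0.92 in mutants (SE 0.19) and 0.96 in wild type (SE 0.19). The 1 gene called lower in wild type was VEGFA, at -0.74 (SE 0.15, edgeR adjusted p = 0.0026). Its call held in 13 of 14 alternatives and was lost without TMM scaling (adjusted p = 0.093). No difference of responses was called in this list by edgeR, where 4 had an unadjusted p below 0.05. DESeq2 called 2, where it called 66 of all genes. None was called between the genotypes by edgeR, where 2.83% of all genes were in non-injured and 1.48% in injured muscle. At an unadjusted p below 0.05 there were 6 in non-injured and 3 in injured muscle. The share of all genes at that p was not taken, so nothing is read from such counts. DESeq2 called 2 in non-injured and 1 in injured muscle, where it called 1136 and 701 of all genes. Leaving out 1 library gave up to 3 calls in non-injured muscle, the 3 without wild type replicate 4 and 1 each without mutant replicate 4 or wild type replicate 1, and 1 in injured muscle without mutant replicate 3.

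**Figure D5:**
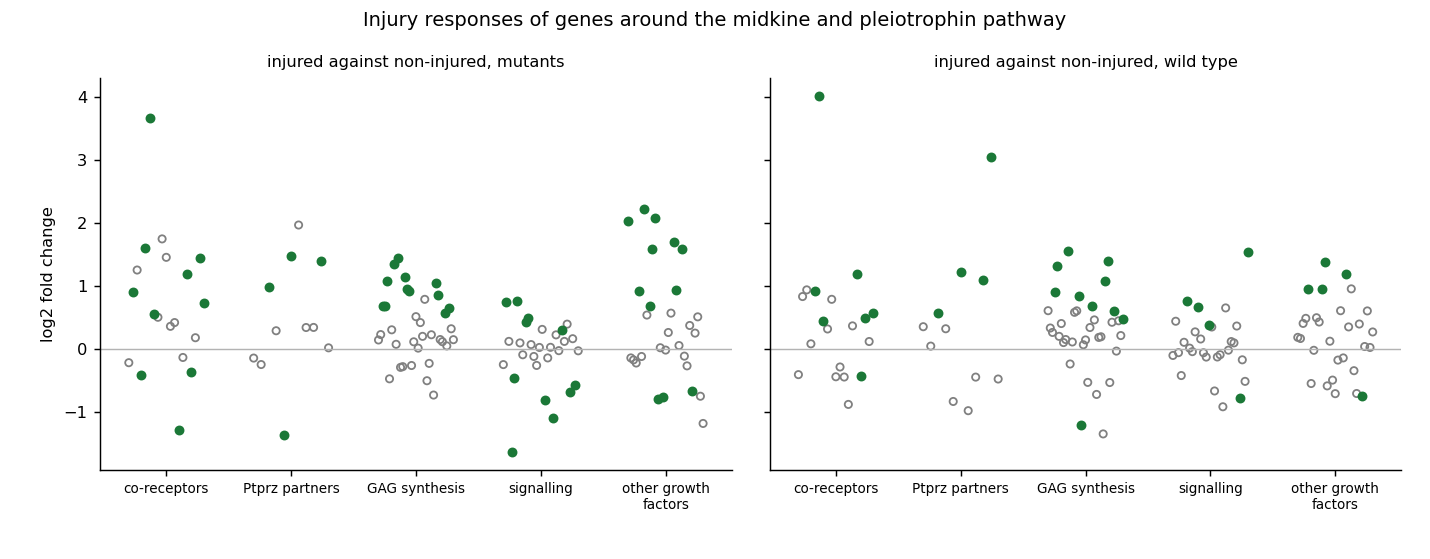
Log2 fold changes after injury in mutants (left) and wild type (right) for the tested genes of 5 lists around the pathway, filled green where called by edgeR at an adjusted p below 0.05. The other growth factors reach 2.22 in mutants and 1.37 in wild type, and the highest co-receptor is ITGA6, at 3.67 in mutants and 4.02 in wild type.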

How the data were processed

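Per the labels' protocols, poly A RNA of 16 single-fish muscle samples went into strand-specific libraries. The authors deposited estimated counts per gene for 32520 Ensembl genes. The submitters' processing notes name RSEM 1.3.3, fastp 0.23.4 and STAR (2.7.0 as well as 2.7.10) without their roles. For genome build, annotation and the strand setting of the counting, the sources used here give nothing. Whole numbers made up 94.29% of the values, and the rest were rounded for the tests. Each column's name is a number that 1 sample carries as its description, and 0 columns were left unmatched. Symbols came from a table that named 29201 genes, many paralogs with only the shared human symbol. Reads of overlapping or near-identical genes may be split between them.

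Tests used edgeR 4.0.16 in R 4.3.3: filterByExpr (minimum count 10, minimum total 15; 16514 genes), TMM, and a robust quasi-likelihood fit with 1 mean per group over all 16 libraries (biological coefficient of variation 31.3%). Calls are two-sided at 0.05 after Benjamini-Hochberg adjustment across the 16514 genes, and intervals are 95% intervals of the log2 fold change. Adjusted p-values are edgeR's unless DESeq2 (1.42.0) is named. On simulated data for mutants against wild type in injured muscle, 55 of 100 genes changed 2-fold and 84 of 100 changed 4-fold were called, with 5 of 16087 unchanged ones. The changed genes were drawn from those with a mean CPM above 1, and no other group difference or deviating library was simulated. These rates therefore do not describe scarcer members such as MDK ENSDARG00000020708. The members and gene lists were chosen with earlier results of these data known. Named genes of the pathway lists were up to 4 called genes with the smallest p per injury contrast, of which the text takes some, and every called gene between genotypes. Marker genes called between genotypes are named too, outside that rule. Likeness took the 5 genes with the highest Pearson r among those with a symbol whose mean log2 CPM was 1 or more. The limit of 3 counts covers counting error only. Intervals cover the spread between libraries of single fish, preparation included, but not a shift shared by a whole group. Replicate numbers are shared between groups, but the labels do not say that they pair fish. No sequences are shown.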

Additional observations from a re-analysis of the deposited data

Results flagged for a closer look

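In 5 cases 1 library stood far from the other 3 of its group (its gap to the nearest value, over the whole range of the group, exceeded the 95% critical value of Dixon's test). They were found among 32 groups of 4 libraries. For normally distributed values, chance gives such a case in about 1 group in 20. That rate need not hold for CPM of genes with few counts, where most of these cases lay. Injured mutant 2 had 0.783 CPM of MDK ENSDARG00000020708, where the next was 0.198 CPM. Non-injured mutant 1 had 4.80 CPM of ALK, where the next was 0.588 CPM, and injured wild type 3 had 0.0473 CPM of ALK, where the next was 0.363 CPM. Non-injured mutant 2 had 8.66 CPM of PTPRZ1 ENSDARG00000020871, where the next was 7.29 CPM. Non-injured wild type 1 had 2.85 CPM of PTPRZ1 ENSDARG00000051814, where the next was 0.465 CPM. That last library was also the highest in epidermis markers. No library of midkine ENSDARG00000036036 stood apart in this way.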

How the results depend on the processing

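Midkine ENSDARG00000036036 kept its direction and its size within the spread between fish in all 28 recomputations of the injury responses. Without 1 library its log2 fold change was 3.23 to 3.54 in mutants and 4.68 to 5.08 in wild type. Between injured mutants and injured wild type it was -1.34 to -0.97 without 1 library and -1.13 under DESeq2, in non-injured muscle 0.147 to 0.483, and for the difference of responses -1.67 to -1.26. Of 49 recomputations between genotypes 47 kept its side of the threshold and 2 turned into calls. Of the other members, 184 of 192 injury values moved by less than the spread and 8 by more, and 314 of 339 genotype values kept their sign, while 25, none of them a call, did not. With library sizes not scaled by TMM, the median gene moved to 0.26 for injury in mutants, 0.34 in wild type, 0.13 between injured and 0.21 between non-injured fish of both genotypes, and -0.07 for the difference of responses. Higher calls then made up 3108 of 3887 for injury in mutants (2306 of 4496 with TMM), 3673 of 4210 in wild type (1956 of 3927), 154 of 208 in injured muscle (137 of 244), 347 of 423 in non-injured muscle (228 of 467) and 1 of 6 for the difference (3 of 10).

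Counts of called genes without 1 library were 3524 to 4120 for injury in mutants, 2608 to 4205 in wild type, 106 to 266 between injured groups, 172 to 625 between non-injured groups and 5 to 13 for the difference. With only the libraries compared they were 2565 for injury in wild type, 386 between injured and 130 between non-injured groups. DESeq2 called 701 between injured groups, 1136 between non-injured groups and 66 for the difference. Leaving out the 2 libraries highest in epidermis markers, an alternative chosen after seeing the data, gave 134 between injured and 299 between non-injured groups. The cause of these shifts was not tested beyond what fewer libraries imply. Over 24 pairs of same-numbered fish from different groups, r of the deviations from group means ran from -0.266 to 0.344, with 8 over 0.1. Of 16 libraries, 6 were most like one of their own number. No values are given for different-numbered pairs, so whether same-numbered fish deviated together was not settled. A fit with replicate number as a block called 4274 genes for injury in mutants, 3653 in wild type, 164 between injured groups, 383 between non-injured groups and 4 for the difference, with midkine at -1.09 in injured muscle and -1.47 for the difference, neither called. Low counts limit MDK ENSDARG00000020708, PTN, ALK, ltk and PTPRZ1 ENSDARG00000051814.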
